A study of Mus musculus with 11 samples.

Results

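The p53 target genes described here were 10 genes chosen by name, Cdkn1a, Trp53inp1, Mdm2, Ccng1, Sesn1, Sesn2, Bax, Phlda3, Zmat3 and Btg2, out of the 23420 genes in the table of mouse heart RNA. Each name matched 1 row, and all 10 passed the filter on low values, which kept 12976 genes. They were chosen with their normalized counts in these libraries known. Differences between groups in these genes, and the calls counted below, are therefore given as a description and not as a test. Total RNA of heart tissue was sequenced in 11 libraries after ribosomal RNA was removed, with a kit that keeps the strand. The endothelial knockout of Cd36 (EC KO, 3 libraries) rests on Tie2-cre and the cardiomyocyte knockout (CM KO, 3 libraries) on MHC-cre, by the design text of the series, and 3 libraries are labelled as a total knockout (Total KO). The 2 Control libraries are labelled as heart tissue, and whether their mice carried a Cre is not stated. The strain entry is the same for every library, a cross between mice that carry Cd36 with loxP sites. How the total knockout was made, and the age and sex of the mice, are not given in the sources used here. The product of Cd36 carries fatty acids into cells. The Tie2 promoter is active in endothelial cells and also in some blood cells, and the MHC promoter is active in cardiomyocytes.

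p53, encoded by Trp53, is a transcription factor that is stabilised when DNA is damaged or cells are stressed and then activates genes that stop the cell cycle, repair DNA, alter metabolism or start apoptosis. Its product is held down by Mdm2, a ubiquitin ligase whose own gene is a p53 target, so that the pair forms a feedback loop. Many of these genes also answer to other transcription factors, and Cdkn1a, which encodes the cyclin-dependent kinase inhibitor p21, is induced by several stress and hormone pathways in heart muscle.

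Recovered reads per library ranged from 2268403 in EC KO replicate 1 to 20105673 in CM KO replicate 2, and the other 9 libraries held at least 11157062. Cd36, the gene named in the labels, averaged 27957 ± 2278 normalized counts in EC KO, 19589 ± 3290 in CM KO, 21188 ± 2303 in Total KO and 39977 ± 6438 in Control (SD, n = 3, 3, 3 and 2). Which exons lie between the loxP sites is not given in the sources used here, so reads from the rest of the gene do not measure the deletion. No label says that libraries came from separate animals, so p-values measure only the spread between these libraries. The number in each label, of unstated meaning, comes from 1 run of numbers for EC KO and Control together and from other runs for CM KO and for Total KO.

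CM KO replicate 1 stood apart from the rest. The 8 fibroblast markers summed to 64434 normalized counts in it, against 26105 and 34130 in CM KO replicates 2 and 3, 14779 to 17081 in EC KO, 15035 to 18710 in Total KO and 17949 to 18571 in Control. The 7 macrophage markers in the table summed to 10502 in it, against 5911 and 7599 in CM KO replicates 2 and 3, 2894 to 3276 in EC KO, 3165 to 4212 in Total KO and 3163 to 3420 in Control. The 8 cardiomyocyte markers were lowest in it, at 729618, against 1021842 and 1057287 in the other CM KO libraries, 1238694 to 1295191 in EC KO, 1202114 to 1307048 in Total KO and 1141736 to 1182173 in Control. The 8 endothelial markers summed to 16907 to 18723 in EC KO, 12971 to 13726 in CM KO, 14044 to 15030 in Total KO and 15123 to 15868 in Control. None of these 31 markers in the table was at 0 in any library. The 5 atrial markers, of which 2 passed the filter on low values, summed to 623 in CM KO replicate 1. Their sums were 157 and 214 in CM KO replicates 2 and 3 and 62.7 to 148.5 in EC KO. In Total KO they were 67.5 to 81.85 and in Control 90.2 to 95.6. The atrial markers Myl7, Sln and Bmp10 were at 0 in some library. These sums move with the groups, and their part in the results on p53 targets was not tested. In RNA from a whole tissue, fewer cells of a type and less RNA per cell cannot be told apart.

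Promoter windows from RefSeq (build GRCm38.p6, the assembly also called mm10), which run from 250 bases before to 50 bases after an annotated start, were matched for 8 of the 10 genes and gave 10 windows. Trp53inp1 and Zmat3 had no entry. The windows below are shown because Cdkn1a had 2 starts that differ in what they hold, and because Phlda3 took a different course across the groups from Cdkn1a. Capitals mark matches to the p53 half-site, purines before a core of C, A or T, and G followed by pyrimidines, and to a full site of adjoining half-sites. The first window of Cdkn1a is chr17:29090729-29091028 on the plus strand.
Cdkn1a window 1: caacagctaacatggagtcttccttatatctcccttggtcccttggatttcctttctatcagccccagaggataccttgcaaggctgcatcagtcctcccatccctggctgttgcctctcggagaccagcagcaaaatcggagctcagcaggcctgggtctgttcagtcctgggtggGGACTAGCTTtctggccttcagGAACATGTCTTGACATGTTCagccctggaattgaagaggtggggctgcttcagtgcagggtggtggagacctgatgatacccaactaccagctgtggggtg
The second is chr17:29093519-29093818 on the plus strand.
Cdkn1a window 2: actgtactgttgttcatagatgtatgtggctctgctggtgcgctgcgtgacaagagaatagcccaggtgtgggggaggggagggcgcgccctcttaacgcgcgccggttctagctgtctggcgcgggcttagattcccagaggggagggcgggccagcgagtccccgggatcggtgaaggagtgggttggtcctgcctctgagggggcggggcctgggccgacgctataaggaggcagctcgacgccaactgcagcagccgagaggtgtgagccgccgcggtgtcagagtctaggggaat
The window of Phlda3 is chr1:135765835-135766134 on the plus strand.
Phlda3 window 1: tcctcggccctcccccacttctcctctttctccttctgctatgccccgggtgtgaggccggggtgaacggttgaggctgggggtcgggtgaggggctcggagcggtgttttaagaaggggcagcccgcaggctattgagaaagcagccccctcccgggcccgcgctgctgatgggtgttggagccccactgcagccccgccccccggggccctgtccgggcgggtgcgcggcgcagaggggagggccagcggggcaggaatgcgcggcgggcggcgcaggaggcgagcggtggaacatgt

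In window 1 of Cdkn1a, the full site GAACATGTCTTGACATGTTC lay at positions -51 to -32 from the start, with 1 mismatch, and a further half-site, GGACTAGCTT, lay at -73 to -64. Of 32851 windows of this length in the reference, 18 (0.0548%) held a full site with at most 1 mismatch, and window 1 of Cdkn1a was the only one of the 10 member windows that did. The pattern of the full site reads the same on both strands, so 1 strand was searched. A half-site was found in 8.36% of all windows and in 5 of the 10 member windows. Besides Cdkn1a, these were GAACTTGCCT in Mdm2, GGGCAAGCCT in Ccng1, AAGCTTGTTT in window 2 of Sesn1 and AGGCAAGCTT in Bax. Window 2 of Cdkn1a and the windows of Phlda3, Sesn2, Btg2 and the first window of Sesn1 held no complete half-site. The window of Phlda3 ends in gaacatgt, the start of a possible half-site that the edge of the window cuts off. Sequence outside the windows was not searched. The other motifs were searched on both strands: CACGTG (E-box, in 7.15% of all windows) was found at 2 places in Bax, TGACGTCA (CRE, 1.79%) in Btg2, and GTAAACA (bound by FOXO factors, 3.65%) in Mdm2 and in the first window of Sesn1. A match describes the letters in these windows and is not a measured site of binding.

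Of the 10 genes, the cell cycle inhibitor Cdkn1a and the pro-apoptotic Trp53inp1 were highest in the endothelial knockout, in which all 3 libraries lay above the other 8. The AKT inhibitor Phlda3 was highest in the cardiomyocyte knockout, again in all 3 libraries. Ccng1 and Sesn1 were lowest in that group in all 3 libraries. Mdm2, the target that feeds back on p53, stayed within a range of 1.27-fold over all 11 libraries. The 10 genes did not all take the same order of groups. Of all 12976 genes, 2.4% had all EC KO libraries above the other 8, 9.05% had all CM KO libraries above and 7.85% had all CM KO libraries below.

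**Figure D1:**
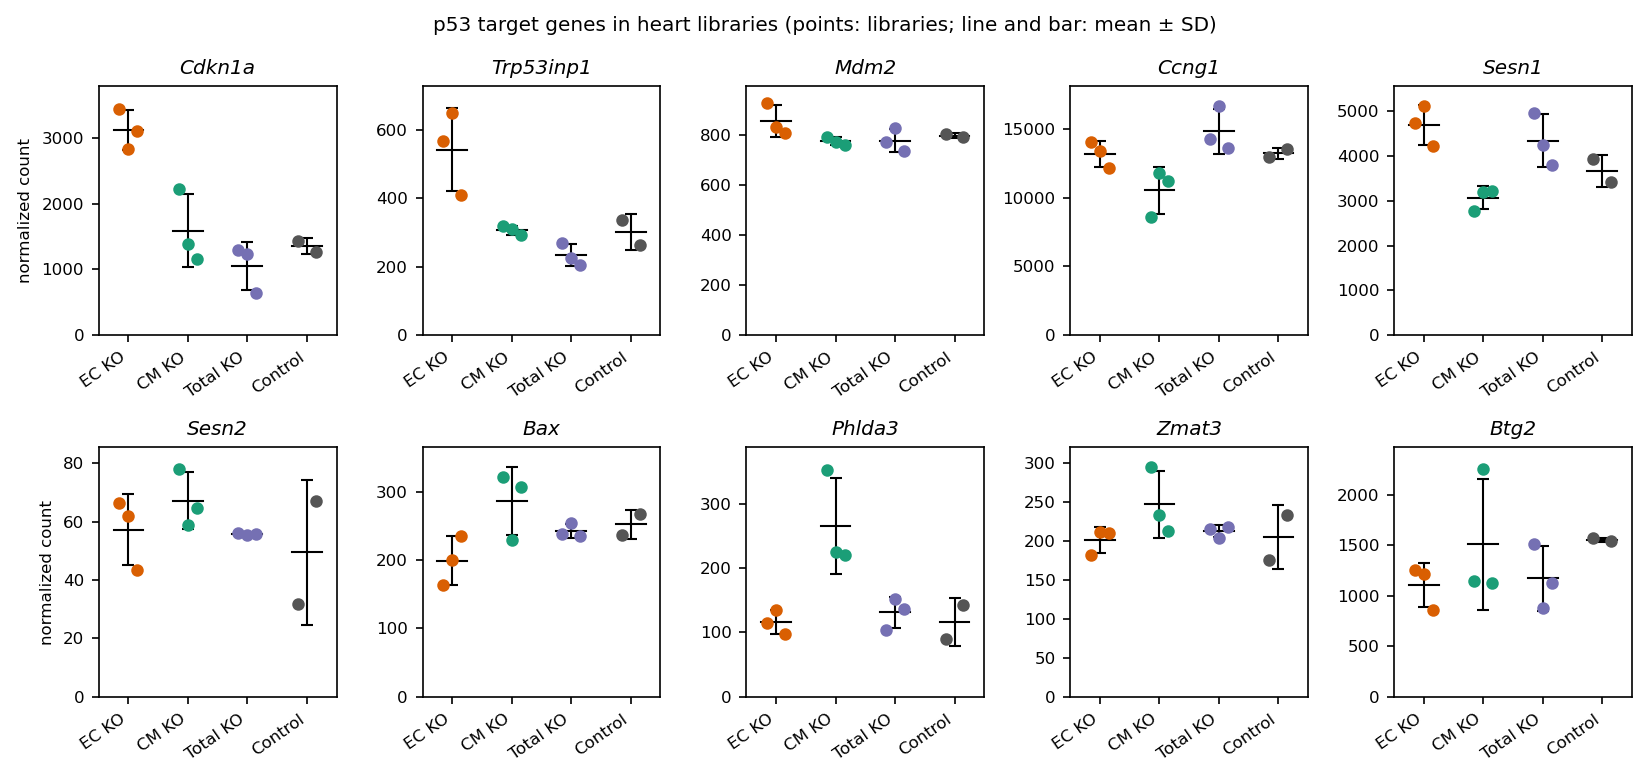
Normalized counts of the 10 p53 target genes, 1 panel for each gene, with groups along the x axis (EC KO, CM KO and Total KO with 3 libraries each, Control with 2). Points are libraries, and the line and bar are the mean ± SD. For Cdkn1a and Trp53inp1 the 3 EC KO points lie above all others, and for Phlda3 the 3 CM KO points do.

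Cdkn1a (ENSMUSG00000023067.14, chr17:29090976-29100727, plus strand, GRCm38) encodes p21, which binds cyclin-dependent kinases and holds cells before DNA replication. It stood at 3438, 2831 and 3107 normalized counts in the EC KO libraries, at 2226, 1392 and 1161 in CM KO, at 1296, 1241 and 638 in Total KO, and at 1440 and 1270 in Control. All 3 EC KO libraries were above every other library, whereas CM KO, Total KO and Control overlapped, with CM KO replicate 1 the highest and Total KO replicate 3 the lowest of them. The group means were 3125 ± 304 in EC KO, 1593 ± 560 in CM KO, 1058 ± 365 in Total KO and 1355 ± 120 in Control (SD). On the log2(value + 1) scale, Cdkn1a differed by 1.20 ± 0.29 (SE) between EC KO and Control, or 2.30-fold, by 0.18 ± 0.29 between CM KO and Control and by -0.42 ± 0.29 between Total KO and Control. The difference of CM KO from Control was -0.09 without CM KO replicate 1, so its direction rested on that library, and that of Total KO from Control was -0.09 without Total KO replicate 3. EC KO differed from CM KO by 1.02 ± 0.26 and Total KO from EC KO by -1.63 ± 0.26. Per kilobase of exon, Cdkn1a had a mean level of 513 over the 11 libraries, the third highest of the 10 genes. Its exons share 273 bases with AC167363.2, a gene on the opposite strand that was not in the table, and the strand setting of the counting is not given in the sources used here.

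Ccng1 (ENSMUSG00000020326.7, chr11:40748552-40755311, minus strand) encodes cyclin G1, which recruits a phosphatase to Mdm2. It was the most abundant member per kilobase of exon, with a mean level of 3678. Ccng1 stood at 14042, 13373 and 12151 normalized counts in EC KO, at 8595, 11787 and 11204 in CM KO, at 14245, 16685 and 13572 in Total KO and at 12937 and 13504 in Control. The CM KO libraries were below all others, and Total KO lay just above Control with no overlap. The log2 difference was -0.34 ± 0.15 between CM KO and Control, -0.01 ± 0.15 between EC KO and Control and 0.16 ± 0.15 between Total KO and Control. Total KO stood 0.50 ± 0.13 above CM KO, or 1.42-fold.

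Btg2 (ENSMUSG00000020423.6, chr1:134075170-134079120, minus strand) encodes an antiproliferative protein that acts with the CCR4-NOT deadenylase. It stood at 1251, 1209 and 860.3 normalized counts in EC KO, at 1143, 2257 and 1127 in CM KO, at 1516, 877 and 1129 in Total KO and at 1567 and 1537 in Control. The EC KO and Total KO libraries were all below Control, and 1 CM KO library was above every other library while its 2 companions were among the low ones. The log2 difference from Control was -0.51 ± 0.29 in EC KO, -0.12 ± 0.29 in CM KO and -0.44 ± 0.29 in Total KO. Between CM KO and Control the direction turned when CM KO replicate 1 (0.04) or replicate 3 (0.05) was left out, and the difference was -0.45 without CM KO replicate 2. Relative to Control, it was -0.34 in EC KO without EC KO replicate 3. Without CM KO replicate 2, the difference of Total KO from CM KO was 0.01, against -0.32 with it.

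Trp53inp1 (ENSMUSG00000028211.11, chr4:11156431-11174379, plus strand) encodes a stress-induced nuclear protein that promotes apoptosis and autophagy. It stood at 568, 651 and 411 normalized counts in EC KO, at 319, 310 and 293 in CM KO, at 270, 227 and 206 in Total KO and at 338 and 264 in Control. The lowest EC KO library was above the highest library of any other group, and the Total KO libraries lay below all CM KO libraries but overlapped Control. The log2 difference was 0.83 ± 0.18 between EC KO and Control, 0.04 ± 0.18 between CM KO and Control and -0.36 ± 0.18 between Total KO and Control. EC KO stood 0.80 ± 0.17 above CM KO, and Total KO stood at -1.19 ± 0.17 relative to EC KO. The gene followed the same order of group means as Cdkn1a, EC KO above CM KO, Control and Total KO, with only EC KO apart from its neighbour.

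Bax (ENSMUSG00000003873.11, chr7:45461697-45466898, minus strand) encodes the pore-forming protein of the mitochondrial outer membrane that carries out apoptosis. It stood at 163, 199.9 and 235 normalized counts in EC KO, at 322.5, 229.9 and 307 in CM KO, at 238, 255 and 236 in Total KO and at 237 and 268 in Control. The EC KO libraries were below all Total KO and Control libraries, and 1 EC KO library overlapped the lowest of CM KO. Its log2 difference from Control was -0.35 ± 0.17 in EC KO, 0.17 ± 0.17 in CM KO and -0.05 ± 0.17 in Total KO, and EC KO stood at -0.52 ± 0.16 relative to CM KO. The group in which Cdkn1a was highest thus had the lowest mean of Bax. EC KO replicate 1 gave Bax 27 reads, and the 95% Poisson interval of its value was 107.5 to 237, which covers counting error only. The exons of Bax share 192 bases with Gm45808 on the same strand, which was not in the table.

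Phlda3 (ENSMUSG00000041801.5, chr1:135766119-135769136, plus strand) encodes a PH domain protein that competes with AKT for membrane lipids and so lowers AKT activity. It stood at 115, 135.5 and 98.1 normalized counts in EC KO, at 352.5, 225 and 220.0 in CM KO, at 104, 153 and 137 in Total KO and at 89.4 and 143 in Control. All CM KO libraries were above all others, with CM KO replicate 1 far above its companions, and EC KO, Total KO and Control overlapped. The log2 difference from Control was 0.03 ± 0.26 in EC KO, 1.19 ± 0.26 in CM KO and 0.20 ± 0.26 in Total KO. Without CM KO replicate 1, the library with the highest fibroblast and macrophage sums, CM KO stood 0.97 above Control. EC KO and Total KO stood at -1.17 ± 0.23 and -0.996 ± 0.23 relative to CM KO. EC KO replicate 1 gave Phlda3 19 reads, with a 95% Poisson interval of 69.1 to 179 for its value.

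**Figure D2:**
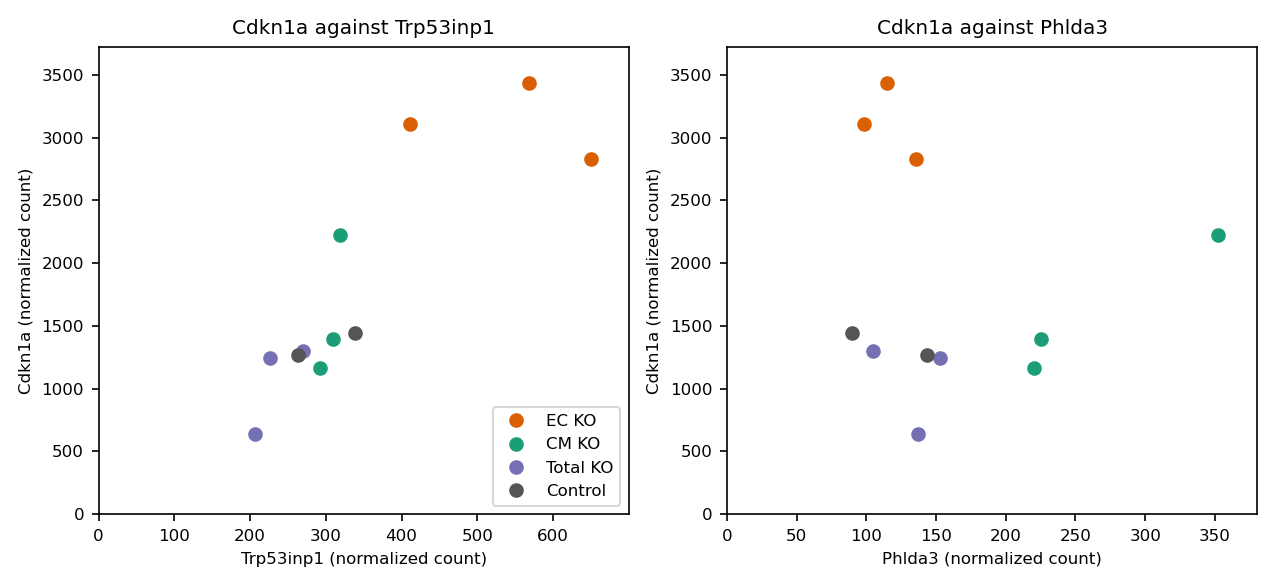
Normalized counts of Cdkn1a (y axis) against those of Trp53inp1 (left panel) and Phlda3 (right panel); each point is a library, coloured by group. The 3 EC KO libraries, at 2831 to 3438 for Cdkn1a, are highest for both genes on the left, whereas on the right they are at 98.1 to 135.5 for Phlda3 and the CM KO libraries are at 220.0 to 352.5.

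Mdm2 (ENSMUSG00000020184.15, chr10:117688875-117710758, minus strand), the ubiquitin ligase that marks p53 for degradation, varied least. It stood at 930.5, 834 and 809 normalized counts in EC KO, at 793.0, 773 and 762 in CM KO, at 773, 829 and 735 in Total KO and at 804 and 791 in Control. The EC KO libraries lay above those of CM KO and Control but overlapped Total KO. The log2 difference from Control was 0.10 ± 0.10 in EC KO, -0.04 ± 0.10 in CM KO and -0.04 ± 0.10 in Total KO. That of EC KO was smaller than those of Cdkn1a (1.20) and Trp53inp1 (0.83), and the difference between genes was not tested. With values rescaled to equal library totals, the difference of CM KO from Control was 0.05.

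Sesn1 (ENSMUSG00000038332.13, chr10:41809935-41908424, plus strand) encodes sestrin 1, a stress-induced protein that restrains the nutrient-sensing kinase complex mTORC1. It stood at 4743, 5111 and 4236 normalized counts in EC KO, at 2779, 3208 and 3231 in CM KO, at 4972, 4255 and 3811 in Total KO and at 3927 and 3426 in Control. The CM KO libraries were below all others, and the EC KO libraries were above Control and overlapped Total KO. The log2 difference from Control was 0.35 ± 0.13 in EC KO, -0.26 ± 0.13 in CM KO and 0.24 ± 0.13 in Total KO. EC KO stood 0.61 ± 0.12 above CM KO. Sesn1 also had the second highest mean level per kilobase of exon, 998.

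Sesn2 (ENSMUSG00000028893.8, chr4:132492032-132510501, minus strand), which encodes the related sestrin 2, was the least abundant member, with a mean level of 16.7 per kilobase of exon. It stood at 66.5, 61.9 and 43.3 normalized counts in EC KO, at 77.9, 58.9 and 64.6 in CM KO, at 56.0, 55.4 and 55.9 in Total KO and at 31.9 and 67.1 in Control. Control replicate 1 was the lowest of all libraries and Control replicate 2 the second highest, so no knockout was apart from Control, while all CM KO libraries were above Total KO. All 3 log2 differences from Control (0.28 ± 0.29 in EC KO, 0.52 ± 0.29 in CM KO and 0.26 ± 0.29 in Total KO) turned negative without Control replicate 1, at -0.25, -0.01 and -0.26. EC KO replicate 1 gave 11 reads for Sesn2, and the interval of its value was 33.2 to 119.

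Zmat3 (ENSMUSG00000027663.12, chr3:32334792-32366014, minus strand) encodes an RNA-binding zinc finger protein that controls splicing and RNA stability. It stood at 181, 211 and 209.5 normalized counts in EC KO, at 295, 233 and 212 in CM KO, at 215, 204 and 218 in Total KO and at 176 and 233 in Control. EC KO lay below CM KO without overlap, by a narrow margin, and no knockout was apart from Control. The log2 difference from Control was -0.02 ± 0.16 in EC KO, 0.27 ± 0.16 in CM KO and 0.07 ± 0.16 in Total KO. CM KO replicate 1 held the highest value of Zmat3, as it did of Bax, Phlda3 and Sesn2, and the lowest of Ccng1 and Sesn1.

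Each gene was also counted as called or not by limma (adjusted p under 0.05 over all genes tested). These counts describe the same differences that chose the members, and nothing is read from them. Between EC KO and Control, 0 of the 10 were called, where 0.316% of all genes were. An unadjusted p under 0.05 was reached by 3 of them, beside 1356 of all 12976 genes. Of the 10, edgeR called 0, beside 50 of all genes, and DESeq2 called 2, Cdkn1a and Trp53inp1, beside 162. The EC KO and Control libraries did not overlap for 6 of the 10, where 25.1% of all genes showed this. Between CM KO and Control, 1 was called, Phlda3, higher in CM KO, where 5.7% of all genes were called and 3.29% were called as higher. The libraries did not overlap for 3 of the 10, where 36.6% of all genes showed this. For Total KO and Control, 0 were called, where 0.0848% of all genes were, and 0 had an unadjusted p under 0.05 or a call by edgeR or DESeq2. Of all 12976 genes, 1052 had such a p there, edgeR called 14 and DESeq2 called 93. The libraries did not overlap for 2 of the 10, Ccng1 and Btg2, where 25.1% of all genes showed this. The median log2 difference of the 10 was 0.06, 0.10 and 0.02 in EC KO, CM KO and Total KO relative to Control, beside -0.01, 0.00 and 0.00 for all genes.

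Between EC KO and CM KO, 5 of the 10 were called, where 19.1% of all genes were. Cdkn1a, Trp53inp1 and Sesn1 were higher in EC KO, where 8.72% of all genes were called as higher, and Bax and Phlda3 were lower, where 10.4% were. The libraries of EC KO and CM KO did not overlap for 7 of the 10, where 38.8% of all genes showed this. Between Total KO and CM KO, 3 were called, where 16.4% of all genes were. Ccng1 and Sesn1 were higher and Phlda3 was lower in Total KO, where 8.2% of all genes were called in each direction. The libraries of Total KO and CM KO did not overlap for 5 of the 10, where 38.9% of all genes showed this. In Total KO relative to EC KO, 1 was called, Trp53inp1, which was lower, where 0.0385% of all genes were called, all of them as lower. For 3 of the 10 the libraries did not overlap, where 19.7% of all genes showed this. Cdkn1a, with a larger difference there (-1.63), was not called by limma but was by DESeq2, which called 70 of all 12976 genes. These 6 comparisons share libraries, so they are not independent of each other.

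**Figure D3:**
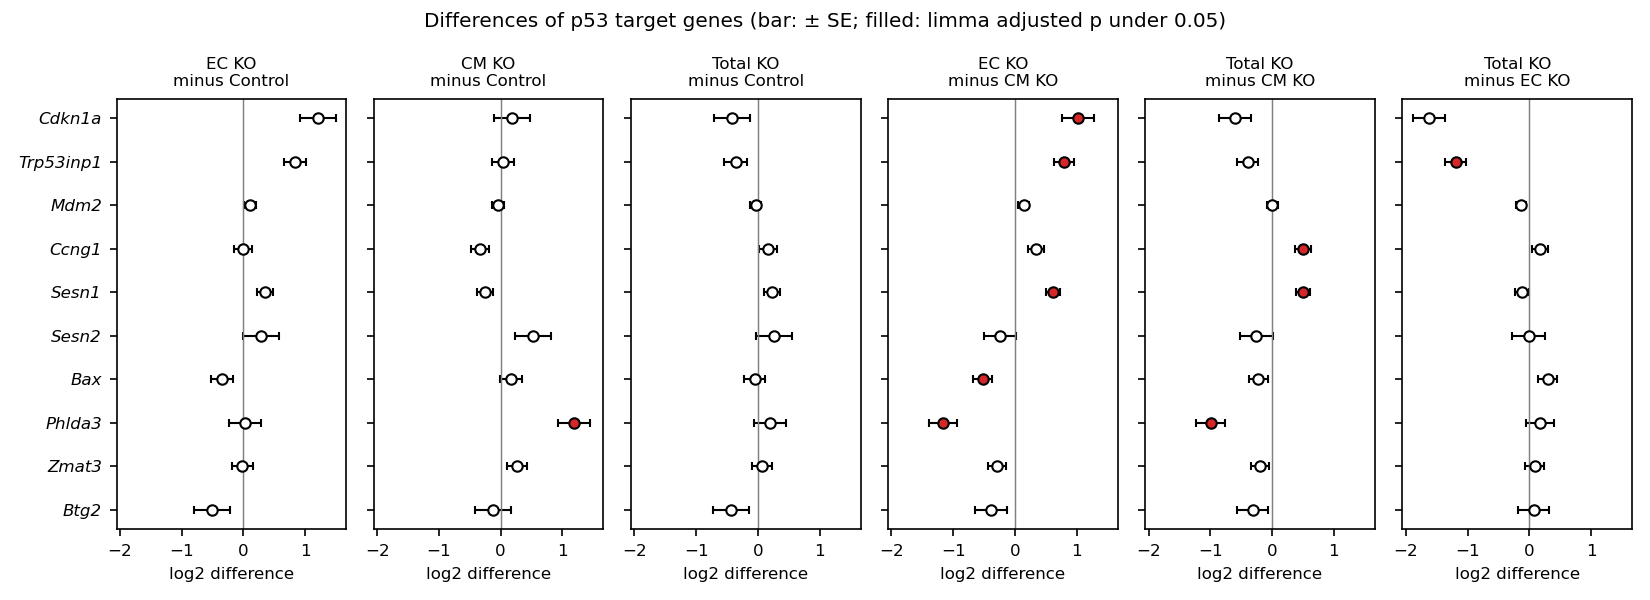
Log2 differences (x axis, on the log2(value + 1) scale, ± SE) of the 10 genes in the 6 comparisons, filled where limma's adjusted p was under 0.05. Cdkn1a (1.20) and Trp53inp1 (0.83) are the furthest right between EC KO and Control, and Phlda3 (1.19) is between CM KO and Control.

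Some of these calls rested on single libraries. Trp53inp1, Sesn1 and Phlda3 were called between EC KO and CM KO whichever library was left out. Because the members were chosen with their values known, a call that was kept is description only. The call of Cdkn1a there was lost without EC KO replicate 1 (0.95) or CM KO replicate 3 (0.82). That of Bax there was lost without EC KO replicate 1 (-0.38), EC KO replicate 2 (-0.53), Total KO replicate 3 (-0.52), CM KO replicate 1 (-0.43) or CM KO replicate 3 (-0.46). Phlda3 between CM KO and Control was no longer called without CM KO replicate 1 (0.97) or Control replicate 1 (0.85). In Total KO relative to CM KO, its call was lost without replicate 1 of CM KO (-0.78) or of Total KO (-0.84). In the same comparison, the call of Ccng1 was lost without Total KO replicate 1 (0.53) or replicate 2 (0.41) and that of Sesn1 without Total KO replicate 1 (0.39). In Total KO relative to EC KO, the call of Trp53inp1 was lost without EC KO replicate 1 or 2, Total KO replicate 2 or 3, or either Control library, with differences of -1.19 to -1.05, and Cdkn1a was called without CM KO replicate 1 (-1.63). Trp53inp1 between EC KO and Control was called without EC KO replicate 3 (1.02).

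Over the 11 libraries, and among 10363 genes with a mean of at least 50, the genes most like Cdkn1a by Pearson's r on the log2 scale were Olfr1033 (0.933), Arntl (0.932), Tspyl4 (0.895), Rph3al (0.894) and Ctdspl (0.893). Arntl, which encodes the clock transcription factor BMAL1, averaged 552 ± 40.4 normalized counts in EC KO, 315 ± 77.1 in CM KO, 219 ± 77.4 in Total KO and 324 ± 59.6 in Control. Among the other members, Trp53inp1 was most like Cdkn1a (r = 0.881, rank 10), followed by Mdm2 (0.770, rank 65) and Sesn1 (0.309, rank 1975). Bax was the least alike (-0.432, rank 9166), and Phlda3 was at -0.103. The genes most like Trp53inp1 were Spock2 (0.930), Stox2 (0.916), Tcf12 (0.903), Man1a2 (0.902) and Zswim1 (0.902). The points share groups and differ in depth, so these values only describe how the profiles run together.

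The gene for p53 itself and its regulators were measured beside the targets. Trp53 averaged 198 ± 26.1 normalized counts in EC KO, 259 ± 35.8 in CM KO, 171 ± 12.8 in Total KO and 211 ± 25.6 in Control. It was lower in Total KO than in CM KO (log2 difference -0.59 ± 0.14, limma adjusted p = 0.0153), a call lost without Total KO replicate 1 or CM KO replicate 1 (-0.53 to -0.48). Trp53 was the 1 call there among 16 tested of the 20 listed genes of p53 and its regulators (6.25%, where 16.4% of all genes were called). Of these 16, 0 were called between any knockout and Control by limma, edgeR or DESeq2. Limma called 0.316%, 5.7% and 0.0848% of all genes in EC KO, CM KO and Total KO. An unadjusted p under 0.05 was reached by 2, 1 and 1 of the 16, beside 1356, 2729 and 1052 of all 12976 genes. Between EC KO and CM KO, 3 were called, all higher in EC KO than in CM KO (18.8%, where 19.1% of all genes were called and 8.72% were higher), whereas edgeR called 3 and DESeq2 1, beside 2423 and 2477 of all genes. They were the acetyltransferase gene Crebbp (0.52 ± 0.15, limma adjusted p = 0.0262), the ubiquitin ligase gene Rfwd2 (0.36 ± 0.11, limma adjusted p = 0.0357) and the p53 family member Trp63 (0.87 ± 0.27, limma adjusted p = 0.0414). Each of these 3 calls was lost in the fit to the 2 groups alone and without CM KO replicate 1. Trp63 averaged 38.1 ± 4.36 normalized counts in EC KO, 20.5 ± 3.80 in CM KO and 36.5 in Control. Its difference of CM KO from Control was -0.82 ± 0.30 (limma adjusted p = 0.141). Of the 11 single omissions, 8 ended the call of Trp63, 5 that of Rfwd2 and 3 that of Crebbp. p53 acts largely through its protein level, which RNA does not show.

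Of 51 other p53 targets, 49 were in the table and 42 were tested. In EC KO relative to Control, 0 were called by limma or edgeR and 1 by DESeq2, beside 41, 50 and 162 of all 12976 genes. An unadjusted p under 0.05 was reached by 4, beside 1356 of all genes. The list's median log2 difference was -0.03, beside -0.01 for all genes. Ninj1, a membrane protein that ruptures dying cells, came nearest, at 1525 ± 74.6 normalized counts in EC KO and 1099 ± 34.9 in Control (log2 difference 0.47 ± 0.10, limma adjusted p = 0.0725). In CM KO relative to Control, 3 of the 42 rose (7.14%, where 5.7% of all genes were called) and 0 fell. They were Perp, a membrane protein of apoptosis and cell adhesion, the heparan sulfatase Sulf2 and the phospholipid transfer protein Pltp. Perp averaged 2751 ± 109 in CM KO and 1694 ± 112 in Control (0.70 ± 0.11, limma adjusted p = 0.00746). Sulf2 averaged 1505 ± 392 in CM KO and 782 ± 145 in Control (0.93 ± 0.17, limma adjusted p = 0.0145), and Pltp 791 ± 103 in CM KO and 536 ± 34.8 in Control (0.55 ± 0.12, limma adjusted p = 0.0235). The 3 genes were no longer called in the fit to CM KO and Control alone or without Control replicate 1, with differences of 0.77, 0.73 and 0.49 in the second case, and Pltp (0.46) also without CM KO replicate 1. In Total KO relative to Control, 0 were called by limma, edgeR or DESeq2, beside 11, 14 and 93 of all 12976 genes. An unadjusted p under 0.05 was reached by 6 of the 42, beside 1052 of all genes.

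Between EC KO and CM KO, 9 of the 42 other targets were called (21.4%, where 19.1% of all genes were). Perp (-0.40 ± 0.10, limma adjusted p = 0.0140), Pltp (-0.77 ± 0.11, limma adjusted p = 0.00101) and Sulf2 (-0.95 ± 0.16, limma adjusted p = 0.00210) were lower in EC KO than in CM KO, as were Cpt1c, Gdf15 and Thbs1. Perp averaged 2087 ± 176 normalized counts in EC KO, above its 1694 ± 112 in Control. The call of Perp was lost without EC KO replicate 3 (-0.34). Kitl, which encodes the ligand of the receptor KIT, rose (0.66 ± 0.15, limma adjusted p = 0.0120), as did Ninj1 and Dcxr. The 6 genes Ninj1, Dcxr, Cpt1c, Gdf15, Thbs1 and Kitl were not called when EC KO replicate 1 and CM KO replicate 1 were both left out. Gdf15, a stress-induced hormone, averaged 13.4 ± 11.9 normalized counts in EC KO, against 76.6 ± 52.4 in CM KO, and its difference of -3.09 ± 0.95 became -1.11 without these libraries. Of the 42, 5 were called between Total KO and CM KO (11.9%, where 16.4% of all genes were). Perp, Pltp, Sulf2 and Thbs1 fell and the adenylate kinase gene Ak1 rose in Total KO, with the call of Ak1 lost without Total KO replicate 1 (0.43) and that of Thbs1 without any of 7 libraries (-1.42 to -0.96). In Total KO relative to EC KO, 0 of the 42 were called by limma, edgeR or DESeq2, beside 5, 4 and 70 of all 12976 genes. An unadjusted p under 0.05 was reached by 4 of the 42, beside 1355 of all genes.

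**Figure D4:**
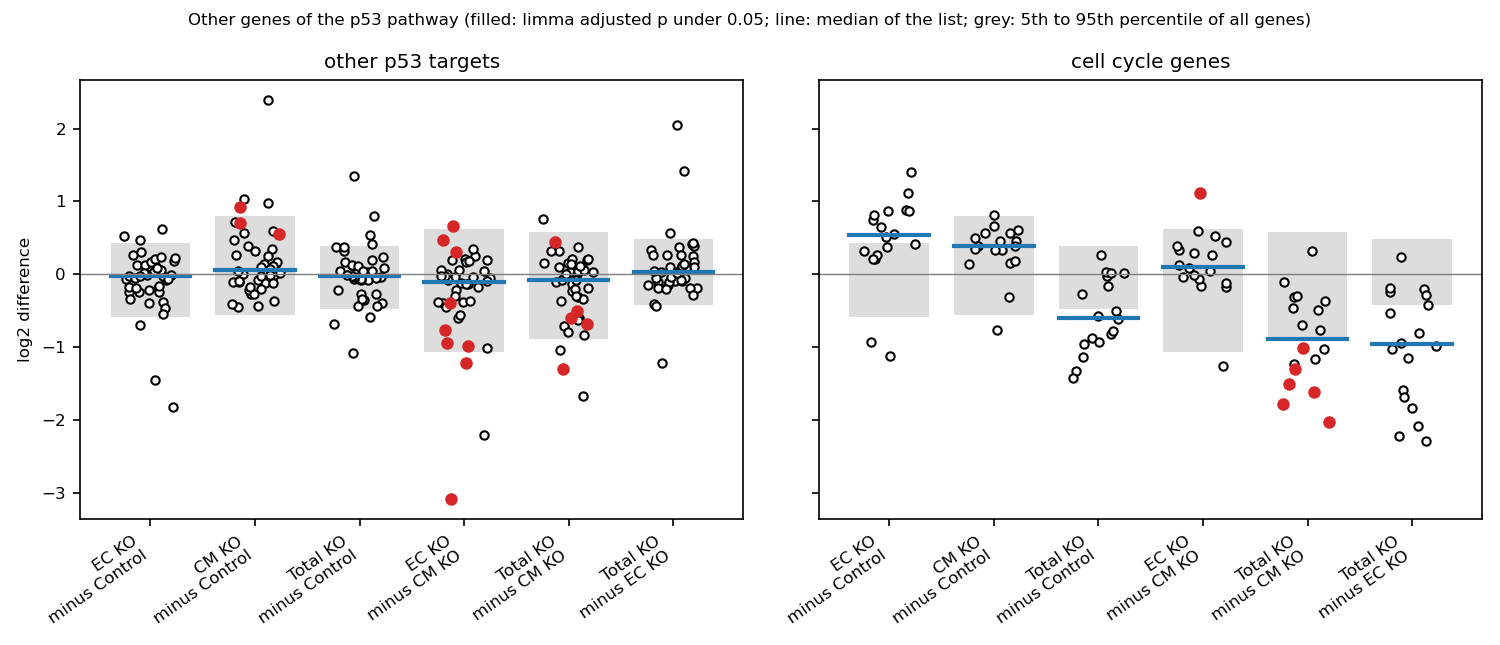
Log2 differences (y axis) of the 42 other p53 targets (left) and the 18 cell cycle genes (right) in the 6 comparisons along the x axis. Points are genes, filled where limma's adjusted p was under 0.05, the blue line is the list's median and the grey band holds the 5th to 95th percentile of all genes. The cell cycle genes have medians of 0.53, 0.39 and -0.60 in EC KO, CM KO and Total KO relative to Control.

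p21 and the complex named DREAM repress genes of DNA replication and mitosis, so 23 such genes were listed, of which 18 were tested. Against Control, limma, edgeR and DESeq2 called 0 of them in each knockout. Of all 12976 genes, limma called 41 in EC KO, 739 in CM KO and 11 in Total KO. An unadjusted p under 0.05 was reached by 1356, 2729 and 1052 of them, and by 3, 0 and 3 of the 18 cell cycle genes. Their median log2 difference from Control was 0.53 in EC KO, where Cdkn1a was highest, 0.39 in CM KO and -0.60 in Total KO, beside -0.01, 0.00 and 0.00 for all genes. Rrm2, a subunit of ribonucleotide reductase, averaged 87.0 ± 13.2 normalized counts in EC KO, 39.5 ± 6.37 in CM KO and 48.8 ± 4.67 in Control, and rose in EC KO relative to CM KO (1.12 ± 0.19, limma adjusted p = 0.00241). In Total KO, 6 of the 18 fell relative to CM KO (33.3%, where 16.4% of all genes were called and 8.2% were lower). Top2a, the topoisomerase of dividing cells, averaged 13.1 ± 4.31 in Total KO and 63.4 ± 44.4 in CM KO (-2.02 ± 0.40, limma adjusted p = 0.00730). Mki67, the proliferation marker, averaged 40.0 ± 2.94 in Total KO and 108 ± 52.2 in CM KO (-1.31 ± 0.32, limma adjusted p = 0.0165), a call lost without Total KO replicate 2 (-1.28) or CM KO replicate 1 (-0.94). The other 4 were genes of mitosis and were low, at 14.9 normalized counts or fewer on average in Total KO and 36.3 or fewer in CM KO. Their log2 differences were -1.01 ± 0.28 for Cdc20, -1.79 ± 0.50 for Ccnb2, -1.50 ± 0.43 for Birc5 and -1.62 ± 0.48 for Ccna2 (limma adjusted p = 0.0265, 0.0304, 0.0319 and 0.0365). Their calls were lost under 5, 4, 3 and 5 of the 11 single omissions, each of them without CM KO replicate 1, and that of Top2a under 0. For Total KO and EC KO, 11 of the 18 had an unadjusted p under 0.05, beside 1355 of all 12976 genes. Limma and edgeR called 0 of the 18, beside 5 and 4 of all genes, and DESeq2 called 3, beside 70. The median of the 18 was -0.96.

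Of 9 tested cyclin-dependent kinases and cyclins that p21 binds, limma and edgeR called 0 in EC KO or Total KO relative to Control. Limma called 0.316% and 0.0848% of all genes there. An unadjusted p under 0.05 was reached by 2 of the 9 in each, beside 1356 and 1052 of all 12976 genes. DESeq2 called 1 of the 9 in Total KO, beside 93 of all genes. Ccnd2, which encodes cyclin D2, rose in CM KO relative to Control (0.65 ± 0.16, limma adjusted p = 0.0350), a call that 6 of the 11 single omissions ended. Total KO relative to CM KO had lower Ccnd1 (-0.58 ± 0.12, limma adjusted p = 0.00970) and Cdk6 (-0.98 ± 0.22, limma adjusted p = 0.0118), the call of Cdk6 being lost without Total KO replicate 3 (-0.86). Of 9 tested partners of Bax in the BCL2 family, 1 was called in CM KO relative to Control (11.1%, where 5.7% of all genes were). Limma, edgeR and DESeq2 called 0 of the 9 in EC KO or Total KO, where limma called 0.316% and 0.0848% of all genes. An unadjusted p under 0.05 was reached there by 1 and 0, beside 1356 and 1052 of all 12976 genes. Bcl2, which holds Bax in check, averaged 364 ± 35.4 normalized counts in CM KO and 167 ± 63.4 in Control (1.17 ± 0.22, limma adjusted p = 0.0154), and 144 ± 33.0 in EC KO, which was lower than CM KO (-1.35 ± 0.20, limma adjusted p = 0.00121). The call of Bcl2 between CM KO and Control was lost without Control replicate 1 (0.77) and in the fit to the 2 groups alone. Between EC KO and CM KO, 3 of the 9 were called (33.3%, where 19.1% of all genes were). Besides Bcl2, these were Hrk, which encodes a pro-apoptotic protein (1.85 ± 0.44, limma adjusted p = 0.0132), and Bcl2l1, which encodes the anti-apoptotic BCL-XL (0.39 ± 0.12, limma adjusted p = 0.0434). Relative to CM KO, Total KO had lower Bcl2 (-0.89 ± 0.20, limma adjusted p = 0.0121) and higher Hrk (1.41 ± 0.44, limma adjusted p = 0.0470). They were 22.2% of the 9, where 16.4% of all genes were called. Single omissions ended the call of Bcl2l1 in 7 of 11 cases and that of Hrk in Total KO in 7, and neither edgeR nor DESeq2 called Hrk there. Of 10 tested paralogues of the members, 0 were called relative to Control by limma or edgeR. Limma called 0.316%, 5.7% and 0.0848% of all genes in EC KO, CM KO and Total KO. An unadjusted p under 0.05 was reached by 2, 3 and 1 of the 10, beside 1356, 2729 and 1052 of all 12976 genes. DESeq2 called 2 of the 10 in CM KO, beside 1276 of all genes. Bok, a relative of Bax, stood below its CM KO level in EC KO (-1.01 ± 0.26, limma adjusted p = 0.0198), a call lost without EC KO replicate 1 (-0.81) or CM KO replicate 1 (-0.72). It was 1 of the 10 (10%, where 19.1% of all genes were called).

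Of 14 genes of nutrient sensing by mTORC1, on which sestrins act, 0 were called in any knockout relative to Control by limma, edgeR or DESeq2. Limma called 0.316%, 5.7% and 0.0848% of all genes in EC KO, CM KO and Total KO. An unadjusted p under 0.05 was reached by 2, 1 and 1 of the 14, beside 1356, 2729 and 1052 of all 12976 genes. EC KO had 2 of the 14 higher than CM KO (14.3%, where 19.1% of all genes were called), the GTPase gene Rragd (0.46 ± 0.11, limma adjusted p = 0.0135) and the mTORC1 inhibitor gene Tsc1 (0.48 ± 0.12, limma adjusted p = 0.0151). Total KO had 3 of the 14 higher than CM KO (21.4%, where 16.4% were), namely Rragd (0.48 ± 0.11, limma adjusted p = 0.0148), Tsc1 (0.44 ± 0.12, limma adjusted p = 0.0238) and the kinase gene Mtor (0.53 ± 0.16, limma adjusted p = 0.0376). The call of Tsc1 in EC KO was lost without CM KO replicate 1 (0.38), and those of Rragd, Tsc1 and Mtor in Total KO were lost under 2, 4 and 5 of the 11 single omissions. Sesn1 was higher than in CM KO in both comparisons.

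Cdkn1a and other members also answer to the glucocorticoid receptor, to the stress factor ATF4, to FOXO factors or to growth signals, and genes of each input were listed. Of 12 tested genes that glucocorticoids induce, 1 was called in EC KO relative to Control (8.33%, where 0.316% of all genes were) and 1 in CM KO (8.33%, where 5.7% were). Both calls were of Fkbp5, a chaperone partner of the glucocorticoid receptor. Like the other lists here, this list was chosen with earlier results of these data known. Its shares are therefore a description and not a result about the list. Fkbp5 averaged 2111 ± 119 normalized counts in EC KO, 1830 ± 377 in CM KO, 1149 ± 30.5 in Total KO and 848 ± 45.5 in Control. It rose by 1.31 ± 0.14 on the log2 scale in EC KO and by 1.09 ± 0.14 in CM KO relative to Control (limma adjusted p = 0.00232 and 0.00198), and both calls were kept under all the alternatives run. In Total KO, 0 of the 12 were called relative to Control by limma, edgeR or DESeq2, where limma called 0.0848% of all genes. An unadjusted p under 0.05 was reached by 4 of the 12, beside 1052 of all 12976 genes. Fkbp5 differed by 0.44 ± 0.14 there (limma adjusted p = 0.366). Fkbp5 in Total KO was lower relative to CM KO (-0.65 ± 0.12, limma adjusted p = 0.00581) and relative to EC KO (-0.88 ± 0.12, limma adjusted p = 0.0270), the second call being lost under 8 of the 11 single omissions. Klf9 and Zbtb16, both transcription factor genes, stood above CM KO in EC KO (0.50 ± 0.15 and 1.11 ± 0.33, limma adjusted p = 0.0316 and 0.0325), calls lost under 4 and 5 single omissions. They were 16.7% of the 12, where 19.1% of all genes were called and 8.72% were higher. The calls of Fkbp5 in Total KO relative to CM KO and EC KO were each 8.33% of the 12, where 16.4% and 0.0385% of all genes were called. The median of the 12 relative to Control was 0.03 in EC KO, -0.13 in CM KO and -0.28 in Total KO.

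Of 11 tested ATF4 targets, 2 rose in CM KO relative to Control (18.2%, where 3.29% of all genes were higher). Ddit3, a transcription factor of the stress response, averaged 240 ± 24.7 normalized counts in CM KO and 148 ± 6.42 in Control (0.69 ± 0.13, limma adjusted p = 0.0156), and the stress gene Nupr1 averaged 173 ± 113 in CM KO and 45.2 ± 5.67 in Control (1.73 ± 0.38, limma adjusted p = 0.0236). Both calls were lost without Control replicate 1 and in the fit to the 2 groups alone. In EC KO and Total KO, 0 of the 11 were called relative to Control by limma or edgeR, where limma called 0.316% and 0.0848% of all genes. Ddit3 averaged 203 ± 9.99 in EC KO and 219 ± 19.2 in Total KO. These were 0.46 ± 0.13 and 0.56 ± 0.13 above Control (limma adjusted p = 0.219 and 0.1895). Nupr1 averaged 48.6 ± 6.88 in EC KO and 69.35 ± 12.35 in Total KO. An unadjusted limma p under 0.05 was reached by 4 of the 11 in EC KO, 7 in CM KO and 3 in Total KO. Beside these stood 1356, 2729 and 1052 of all 12976 genes. DESeq2 called 1 of the 11 in EC KO and 0 in Total KO, beside 162 and 93 of all genes. The list's median log2 difference from Control was 0.21 in EC KO, 0.52 in CM KO and 0.16 in Total KO. Psat1, an enzyme of serine synthesis, Nupr1 and Atf5 were lower in EC KO than in CM KO. They were 27.3% of the 11, where 10.4% of all genes were called as lower. Nupr1 and Atf5 were lower in Total KO than in CM KO (18.2%, where 8.2% were). The log2 differences were -1.63 to -0.55. Single omissions ended the call of Atf5 in 5 and 4 of 11 cases and that of Nupr1 in Total KO in 5. Of 15 tested immediate early genes, Junb rose in CM KO relative to Control (0.85 ± 0.21, limma adjusted p = 0.0350), a call that 5 of the 11 single omissions ended, and 0 were called in EC KO or Total KO by limma, edgeR or DESeq2, with 5 and 4 at an unadjusted p under 0.05. The 1 call in CM KO relative to Control was 6.67% of the 15, where 5.7% of all genes were called. For EC KO and Total KO relative to Control, limma called 0.316% and 0.0848% of all genes. An unadjusted p under 0.05 was reached by 1356 and 1052 of all 12976 genes there. EC KO had lower Junb, Egr2, Fos, Ier3 and Jund than CM KO (33.3%, where 10.4% of all genes were called as lower). Total KO had lower Egr2, Junb and Fosl2 than CM KO (20%, where 8.2% were). The log2 differences were -1.75 to -0.57. Single omissions ended the calls of Ier3 and Jund in EC KO in 2 and 3 of 11 cases and that of Fosl2 in Total KO in 4.

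Of 10 tested FOXO targets, 0 were called relative to Control by limma, beside 0.316%, 5.7% and 0.0848% of all genes in EC KO, CM KO and Total KO. An unadjusted p under 0.05 was reached by 3, 1 and 2 of the 10, beside 1356, 2729 and 1052 of all 12976 genes. Relative to Control, edgeR called 1 of the 10 in CM KO, beside 1007 of all genes. DESeq2 called 1 in EC KO and 1 in CM KO, beside 162 and 1276 of all genes. Between EC KO and CM KO, 6 of the 10 were called (60%, where 19.1% of all genes were), and edgeR and DESeq2 called 5 each, beside 2423 and 2477 of all 12976 genes. Those higher in EC KO were the mitophagy genes Bnip3 (0.82 ± 0.18, limma adjusted p = 0.00835) and Pink1 (0.53 ± 0.13, limma adjusted p = 0.0174), the autophagy gene Gabarapl1 (0.43 ± 0.10, limma adjusted p = 0.0121) and the muscle ubiquitin ligase genes Trim63 (0.44 ± 0.12, limma adjusted p = 0.0234) and Fbxo32 (0.33 ± 0.10, limma adjusted p = 0.0295), whereas Pik3ip1 was lower (-0.35 ± 0.11, limma adjusted p = 0.0470). With equal library totals the calls of Gabarapl1 (0.30), Trim63 (0.32) and Fbxo32 (0.21) were lost, and 9 of the 11 single omissions ended that of Pik3ip1, 4 those of Trim63 and of Fbxo32, and 1 those of Pink1 and of Gabarapl1. Fbxo32, Pink1 and Gabarapl1 were also higher in Total KO than in CM KO, by 0.34 to 0.49, and the calls of Fbxo32 (0.25) and Gabarapl1 (0.20) were lost with equal library totals. The 3 calls were lost under 2, 3 and 6 of the 11 single omissions. The summed cardiomyocyte markers were also higher in every EC KO and Total KO library than in any CM KO library, and their part in these differences was not tested.

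Of the 18 windows with a full p53 site, those of Cdkn1a and of 4 other tested genes, Calhm2, Gtse1, Rps27l and Sptbn4, could be set beside expression. Relative to Control, the log2 difference in EC KO was 1.20 for Cdkn1a, 0.49 for Calhm2, 0.53 for Gtse1, 0.01 for Rps27l and 0.41 for Sptbn4. Limma called none of the 4 other genes in any of the 6 comparisons (lowest adjusted p = 0.0602, for Gtse1 in Total KO relative to CM KO).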

How the data were processed

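Heart RNA of 11 mouse libraries was measured from 400 ng of total RNA. Per the submitters' processing notes, TopHat2 (no version given), HTSeq 0.8.0 and DESeq2 (given as 3.5) were used on mm10. The counting mode, strand setting and annotation are not given in the sources used here. The deposited signal values, here called normalized counts, are whole reads scaled by the authors with a factor for each library. Division by the value of 1 read, 6.04 in EC KO replicate 1 and 0.648 to 1.27 elsewhere, returned whole reads to within 0.05 for all 257620 values (100%).

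Replicates are numbered in order of deposit. Genes with a mean of at least 10 (12976) were taken as log2(value + 1), which draws low values together. A library at 0 can still weigh heavily in a difference. Gdf15 between EC KO and CM KO (-3.09) had a lowest EC KO value of 0. All 11 libraries entered a single linear model in limma 3.58.1 under R 4.3.3, with the prior variance following expression. Two-sided p-values received the Benjamini-Hochberg adjustment over the genes of a comparison and were called under 0.05. On recovered reads, edgeR 4.0.16 (quasi-likelihood) called 50, 1007 and 14 genes in EC KO, CM KO and Total KO relative to Control, and DESeq2 1.42.0 called 162, 1276 and 93, where limma called 41, 739 and 11. In simulated data of 12976 genes, limma called 54 of 100 genes made to differ by 1 on the log2 scale and 97 of 100 made to differ by 2 between EC KO and Control, with 7 false calls. For CM KO these were 64, 97 and 1, and for Total KO 52, 92 and 2. The simulation gave every gene in every group the same dispersion, 0.03, with no shift in cell type markers. These counts therefore need not hold for the real libraries, whose spread differs between genes and groups.

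The members and gene lists were chosen with earlier results of these data known. The text names all members, the genes of the pathway lists that passed in a comparison, a few that did not, whose values are given, and the 5 genes most correlated with Cdkn1a and with Trp53inp1, predicted genes passed over. Gene positions are from GENCODE M21 (GRCm38). Alternatives were pseudocounts of 0.5 and 5, no filter, a filter at 50, equal library totals or upper quartiles, the 2 groups alone, library weights, edgeR, DESeq2 and each library left out. Leaving out EC KO replicate 1 and CM KO replicate 1 together was added after the values were seen.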

Additional observations from a re-analysis of the deposited data

How the results depend on the processing

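Of 1320 differences of members under alternatives, 1291 kept their value within 1 SD, 29 moved and 0 called values turned round. Of 1637 values of other named genes, 1317 kept their call and 320 lost it, all in the same direction. No paired analysis was possible because the labels pair no libraries across groups. Equal library totals moved the median of all genes to -0.12 between EC KO and CM KO and -0.14 between Total KO and CM KO. The split of higher and lower calls was then 640 and 2088 (1131 and 1348 without rescaling) in the first and 547 and 1750 (1064 and 1064) in the second, 568 and 237 (427 and 312) for CM KO and Control, 15 and 23 (22 and 19) for EC KO and Control, and 11 and 15 (8 and 3) for Total KO and Control. The causes of the changes below were not tested.

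For EC KO and Control, genes called were 22 with no filter, 27 with weights and 162 by DESeq2 (41 as reported), members called were 1 in the 2 groups alone and 2 by DESeq2 (0), and other targets 1 by DESeq2 (0). For CM KO and Control, genes called were 63 in the 2 groups alone, 1276 by DESeq2 and 425 with both doubted libraries out (739), members 0 in the 2 groups alone and 0 with both out (1), and other targets 0 in the 2 groups alone (3). For Total KO and Control, genes called were 7 with no filter, 26 with library totals, 93 by DESeq2 and 40 with both out (11). For EC KO and CM KO, genes called were 1141 with both out (2479), and other targets 4 in the 2 groups alone and 3 with both out (9). For Total KO and CM KO, genes called were 3553 with weights and 1261 with both out (2128), members 1 with both out (3), and other targets 9 with library totals, 11 with weights, 8 by edgeR and 9 by DESeq2 (5). For Total KO and EC KO, genes called were 0 with no filter, 3 with a filter at 50, 14 in the 2 groups alone, 116 with weights and 70 by DESeq2 (5), and members 0 with no filter, 2 in the 2 groups alone, 2 with weights, 2 by DESeq2 and 0 with both out (1).

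With each library left out in turn, genes called ranged from 5 to 84 for EC KO and Control, 26 to 999 for CM KO and Control, 1 to 33 for Total KO and Control, 1455 to 2582 for EC KO and CM KO, 1036 to 2272 for Total KO and CM KO and 0 to 28 for Total KO and EC KO. Members called ranged from 0 to 1, 0 to 1, 0 to 0, 3 to 5, 0 to 3 and 0 to 2 in the same order, and other targets from 0 to 1, 0 to 4, 0 to 0, 4 to 8, 3 to 7 and 0 to 0. Without either Control library 1 is left, whose spread is borrowed from the knockouts. With 2268403 reads, EC KO replicate 1 limits what can be said of Sesn2, Phlda3, Bax and Zmat3.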
